A study of Mus musculus with 12 samples.

Results

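The genes described here are 8 genes of cholesterol synthesis and its control, *Hmgcs1*, *Sqle*, *Idi1*, *Insig1*, *Srebf2*, *Fdft1*, *Lss* and *Dhcr7*, measured in mouse kidney. They were taken by symbol from a table of 35275 genes, and each symbol had a row of reads in every library. Kidney RNA came from 12 mice at 6 months of age, all C57BL/6J, with 4 mice in each of 3 groups. By the study's methods there were 2 females and 2 males per group. WT mice carry the normal *Pkd1* gene. RC/RC mice are homozygous for a knock-in missense allele of *Pkd1*, the gene mutated in most human autosomal dominant polycystic kidney disease, and the allele is hypomorphic and present in every cell, so that cysts form slowly. RC/RC:Casp1KO mice carry the same *Pkd1* allele and also lack Caspase-1, through a TALEN-made deletion at the end of *Casp1* exon 6 in every cell, and they come from 1 deletion line. The study asked how the kidneys of these groups differ in gene expression. Reads counted per library ranged from 18019819 to 24869454.

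Cholesterol is built from acetyl-CoA through mevalonate, isoprenoid diphosphates, squalene, lanosterol and a series of later sterols. The transcription factor SREBP2 switches on most enzymes of this route. While sterols are plentiful in the endoplasmic reticulum, INSIG proteins hold SREBP2 and its escort SCAP there, and when sterols fall the complex moves to the Golgi, where SREBP2 is cleaved and released to the nucleus.

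*Casp1* was read first, as a check of the labels. Its level was 2.06, 1.29, 1.30 and 1.41 CPM (the share of a mouse's counted reads that fell on the gene, put on a common scale of library size with TMM factors) in the WT mice, 3.37, 3.84, 4.26 and 2.62 CPM in the RC/RC mice and 0.664, 0.665, 0.385 and 1.05 CPM in the RC/RC:Casp1KO mice. Every RC/RC:Casp1KO mouse was below every other mouse. Against RC/RC the log2 fold change was -2.35 (SE 0.32, adjusted p = 0.00514). This and every other adjusted p comes from the quasi-likelihood test of edgeR, Benjamini-Hochberg adjusted over all genes tested, unless another test is named. *Pkd1* averaged 52.9 ± 13.4 CPM in WT mice, 55.3 ± 9.70 CPM in RC/RC mice and 71.4 ± 12.2 CPM in RC/RC:Casp1KO mice (SD, n = 4), and a missense allele need not alter that level. Kidney markers were present throughout, since none of 10 proximal tubule genes and none of 6 genes of the thick ascending limb and distal tubule was at 0 in any mouse.

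Mice are numbered 1 to 4 within a group only to name them. Several libraries stood apart. The adipocyte markers summed to 1960 CPM in RC/RC mouse 2, against 40.5 to 233 CPM in the other 11 mice, with *Fabp4* the most abundant. In each group *Ddx3y*, a Y-linked gene, was high in a pair of mice and *Xist*, the X-inactivation transcript, in the other pair. *Ddx3y* stood at 75.6 and 78.5 CPM in WT mice 3 and 4, at 55.5 and 66.0 CPM in RC/RC mice 3 and 4, at 69.4 and 69.3 CPM in RC/RC:Casp1KO mice 2 and 4, and at 0.115 CPM or less elsewhere. The columns of the table do not give sex, so no result is split by it. WT mouse 1 had the highest mean of the 8 genes after each was standardised over the 12 mice, at 1.803 SD.

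The genes differ widely in abundance. On the per-length scale (FPKM, the CPM before TMM scaling divided by the gene's length in kilobases), the mean level in WT kidneys was 169 ± 20.3 for *Hmgcs1*, 26.4 ± 4.96 for *Srebf2*, 20.3 ± 5.30 for *Sqle*, 19.9 ± 6.80 for *Insig1*, 13.7 ± 5.35 for *Idi1*, 11.96 ± 6.41 for *Fdft1*, 9.27 ± 1.76 for *Dhcr7* and 4.26 ± 1.11 for *Lss* (SD, n = 4 mice). *Hmgcs1* stood far above the rest, and from *Srebf2* to *Dhcr7* the intervals of mean ± SD of neighbours in this order overlapped. *Hmgcs1* was also the most abundant of the 8 in RC/RC kidneys, at 130 ± 42.01 FPKM, and in RC/RC:Casp1KO kidneys, at 134 ± 30.5 FPKM. *Lss* was the lowest in all 3 groups, at 2.99 ± 0.254 FPKM in RC/RC and 3.93 ± 0.411 FPKM in RC/RC:Casp1KO.

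The promoters of 3 of the genes are shown because the sterol response element and CCAAT boxes are the sites through which SREBP2 and its partner NF-Y are known to act. RefSeq promoter windows on GRCm38.p6, the assembly also called mm10 in the labels, were at hand for 6 of the 8 genes, all but *Sqle* and *Fdft1*. The 250 bases before the RefSeq start are given 5′ to 3′ on the plus strand, which is the strand of all 3 genes. Capitals mark TCACNCCAC, the core of the sterol response element, and CCAAT or its reverse complement ATTGG. The windows are chr13:119690101-119690350 for *Hmgcs1*, chr15:82147019-82147268 for *Srebf2* and chr10:76531355-76531604 for *Lss*.
Hmgcs1: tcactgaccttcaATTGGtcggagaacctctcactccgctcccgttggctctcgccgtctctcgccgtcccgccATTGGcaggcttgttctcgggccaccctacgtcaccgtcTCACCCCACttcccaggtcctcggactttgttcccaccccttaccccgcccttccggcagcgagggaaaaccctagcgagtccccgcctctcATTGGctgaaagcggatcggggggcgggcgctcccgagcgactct
Srebf2: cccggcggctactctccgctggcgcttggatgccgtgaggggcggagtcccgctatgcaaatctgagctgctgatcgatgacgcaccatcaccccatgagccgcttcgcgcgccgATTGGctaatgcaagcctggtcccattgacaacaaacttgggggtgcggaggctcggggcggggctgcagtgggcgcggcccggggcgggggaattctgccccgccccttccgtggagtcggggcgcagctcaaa
Lss: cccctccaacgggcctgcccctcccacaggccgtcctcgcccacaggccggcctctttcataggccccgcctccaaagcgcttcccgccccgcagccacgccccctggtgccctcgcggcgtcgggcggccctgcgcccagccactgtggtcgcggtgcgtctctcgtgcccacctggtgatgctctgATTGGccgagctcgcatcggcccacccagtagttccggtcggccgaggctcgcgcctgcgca

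The only window of the 6 with TCACNCCAC was that of *Hmgcs1*, where it lies 137 bases before the start, at chr13:119690214-119690222, with a CCAAT box on either side of it. Searched on both strands in windows of the same length, TCACNCCAC was in 1.05% of 32851 RefSeq promoters. CCAAT was in 5 of the 6 windows, all but that of *Dhcr7*, and in 33.8% of all promoters, while GGGCGG, the core of the Sp1 site, was in 6 of 6 and in 32.7% of all promoters. TCACGTGA, an E-box form of the SREBP site, was in none of the 6 and in 0.785% of all promoters. Among 19 enzymes of the pathway 16 had a window, and CCAAT was in 14 and GGGCGG in 15 of these. These are exact matches of letters and not tests of binding. Forms that differ from the motifs were not counted, such as tcaccccat in the *Srebf2* window, which departs from TCACNCCAC in its last base.

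The first comparison, RC/RC against WT, asks how the cystic kidney differs from the normal one. All 8 genes had a lower mean in RC/RC, with log2 fold changes from -1.31 to -0.34 and a median of -0.51, against -0.02 over all 15243 genes tested, of which 52.2% were below 0. *Lss* alone passed the test, and over all genes 3.18% were called lower and 9.76% higher. The groups did not overlap for 4 of the 8 genes, *Sqle*, *Srebf2*, *Lss* and *Dhcr7*, against 6.58% of all genes with RC/RC wholly below WT. In kidney tissue, fewer cells of a type and less RNA per cell cannot be told apart.

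**Figure D1:**
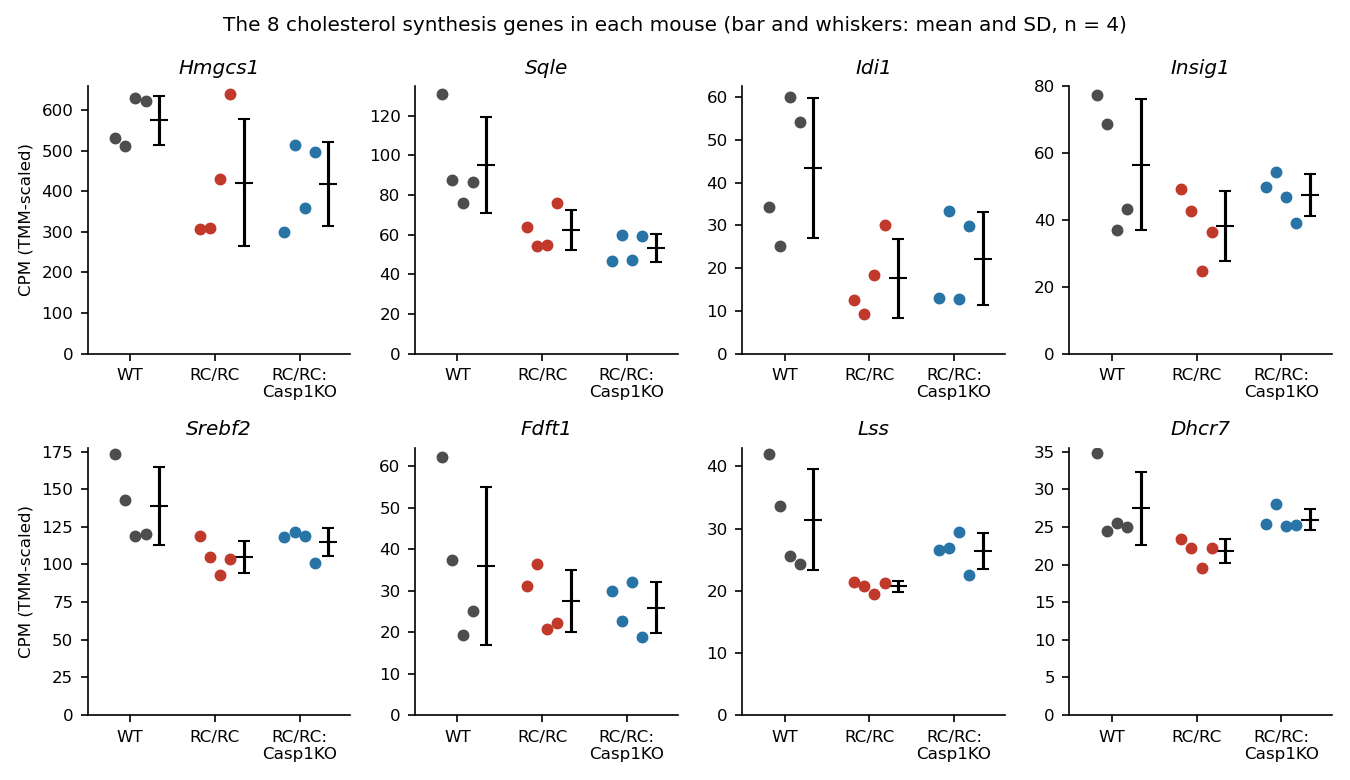
Level of each of the 8 genes in each mouse, in TMM-scaled CPM on an axis from 0, for WT (grey), RC/RC (red) and RC/RC:Casp1KO (blue); each dot is a mouse, mice 1 to 4 from left to right, and the bar with whiskers is the mean and SD of 4 mice. For *Sqle*, *Lss* and *Dhcr7* every RC/RC dot lies below every WT dot, while *Hmgcs1*, *Idi1* and *Fdft1* spread widely within groups.

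Of the regulators, *Srebf2* (ENSMUSG00000022463, chr15:82147266-82205376) encodes SREBP2 and is itself a target of SREBP2. It stood at 174, 143, 119 and 120 CPM in the WT mice and at 119, 105.2, 92.8 and 104 CPM in the RC/RC mice. The groups met but did not cross, with the highest RC/RC mouse at 118.827 CPM and the lowest WT mouse at 118.856 CPM. On the log2 scale the fold change was -0.41 (SE 0.15, adjusted p = 0.0991). *Srebf2* passed in 2 of 6 alternative analyses, DESeq2's Wald test (adjusted p = 0.0470) and 1 fit of all 12 mice (adjusted p = 0.0491). *Insig1* (ENSMUSG00000045294, chr5:28071363-28078662), which encodes the retention protein and is a sensitive SREBP target, stood at 77.5, 68.7, 37.0 and 43.1 CPM in WT and at 49.2, 42.5, 24.6 and 36.3 CPM in RC/RC. WT mice 1 and 2 were the highest and the groups overlapped, with a log2 fold change of -0.57 (SE 0.27, adjusted p = 0.192).

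Of the early steps, *Hmgcs1* (ENSMUSG00000093930, chr13:119690462-119708086) encodes the cytosolic HMG-CoA synthase. It stood at 532, 512, 631 and 623 CPM in WT and at 306, 309, 429 and 641 CPM in RC/RC. In 3 RC/RC mice it was below all WT mice, and RC/RC mouse 4 was above all of them. The log2 fold change was -0.45 (SE 0.24, adjusted p = 0.242), and of the 8 fits that leave out 1 mouse *Hmgcs1* passed in 1, that without RC/RC mouse 4 (-0.73, adjusted p = 0.0266), with adjusted p-values up to 0.459 and a change as small as -0.34 in the others. *Idi1* (ENSMUSG00000058258, chr13:8885501-8892451), the isomerase that makes dimethylallyl diphosphate, showed the lowest ratio of the 8 genes. It stood at 34.4, 25.1, 60.1 and 54.1 CPM in WT and at 12.5, 9.26, 18.5 and 30.2 CPM in RC/RC. RC/RC mouse 4 lay above WT mouse 2, so the groups overlapped. The log2 fold change was -1.31 (SE 0.39, adjusted p = 0.0550), which is 0.403 of the WT level, and *Idi1* passed in 2 of the 8 fits that leave out 1 mouse, without RC/RC mouse 4 (-1.71, adjusted p = 0.0144) and without WT mouse 2 (-1.504, adjusted p = 0.0424). In the other 6 it did not pass, with adjusted p-values up to 0.136 and the smallest change at -1.12. In all 8 mice *Idi1* had an adjusted p of 0.00499 in DESeq2's Wald test, 0.0406 when every gene with a count was tested and 0.0531 to 0.0608 under the other 4 alternatives. Reference transcripts of 2 processed pseudogenes, *Idi1-ps1* and *Idi1-ps2*, share at least 681 bases with *Idi1* at 97.7% identity or more, and how the authors treated reads that fit several places is not given in the sources used here.

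*Fdft1*, *Sqle*, *Lss* and *Dhcr7* act from squalene onwards. *Fdft1* (ENSMUSG00000021273, chr14:63145153-63177793, minus strand), the squalene synthase, stood at 62.3, 37.5, 19.3 and 25.1 CPM in WT and at 31.0, 36.5, 20.7 and 22.2 CPM in RC/RC. WT mouse 1 was well above all the others, and the groups overlapped. The log2 fold change was -0.39 (SE 0.34, adjusted p = 0.476), and it was 0.01 without WT mouse 1 (adjusted p = 0.987). The table lets *Fdft1* overlap *Ctsb*, a cathepsin gene on the opposite strand, by 767 bases, and *Ctsb* had a median of 15759 counts per library against 582 for *Fdft1*. Whether the counting used strand is not given in the sources used here, so reads of the shared end cannot be told apart. *Ctsb*, named here for that overlap after the values were seen, had a log2 fold change of 0.02 (SE 0.16, adjusted p = 0.941).

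*Sqle* (ENSMUSG00000022351, chr15:59315077-59331192) encodes squalene epoxidase, a rate-limiting enzyme of the later pathway. It stood at 131, 87.6, 76.1 and 86.4 CPM in WT and at 64.0, 54.4, 54.7 and 75.9 CPM in RC/RC. The highest RC/RC mouse was just under the lowest WT mouse. For *Sqle* the log2 fold change was -0.62 (SE 0.18, adjusted p = 0.0532), and DESeq2's Wald test gave an adjusted p of 0.0165. Its transcript shares stretches of at least 100 bases at 95% identity or more with transcripts of 178 other genes, so part of its reads may fit several places. *Lss* (ENSMUSG00000033105, chr10:76531588-76557138), lanosterol synthase, which closes the sterol rings, stood at 41.9, 33.7, 25.6 and 24.4 CPM in WT and at 21.3, 20.8, 19.5 and 21.2 CPM in RC/RC. The RC/RC mice lay close together and all below the WT mice. *Lss* fell by 34.2% (log2 fold change -0.60, SE 0.17, adjusted p = 0.0426). The call held in 2 of the 8 fits that leave out 1 mouse and was lost without WT mouse 1 (-0.44, adjusted p = 0.0727), WT mouse 2 (adjusted p = 0.0918) or any single RC/RC mouse (adjusted p from 0.0613 to 0.110).

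*Dhcr7* (ENSMUSG00000058454, chr7:143823145-143848410), the reductase of 7-dehydrocholesterol, whose transcript shares such stretches with 93 other genes, stood at 34.8, 24.5, 25.6 and 24.97 CPM in WT and at 23.4, 22.1, 19.5 and 22.2 CPM in RC/RC. WT mouse 1 was well above the others, and the RC/RC mice were all below the WT mice, with a log2 fold change of -0.34 (SE 0.13, adjusted p = 0.131). In the 8 fits that leave out 1 mouse the change of *Dhcr7* ran from -0.40 to -0.21, and it passed in none.

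**Figure D2:**
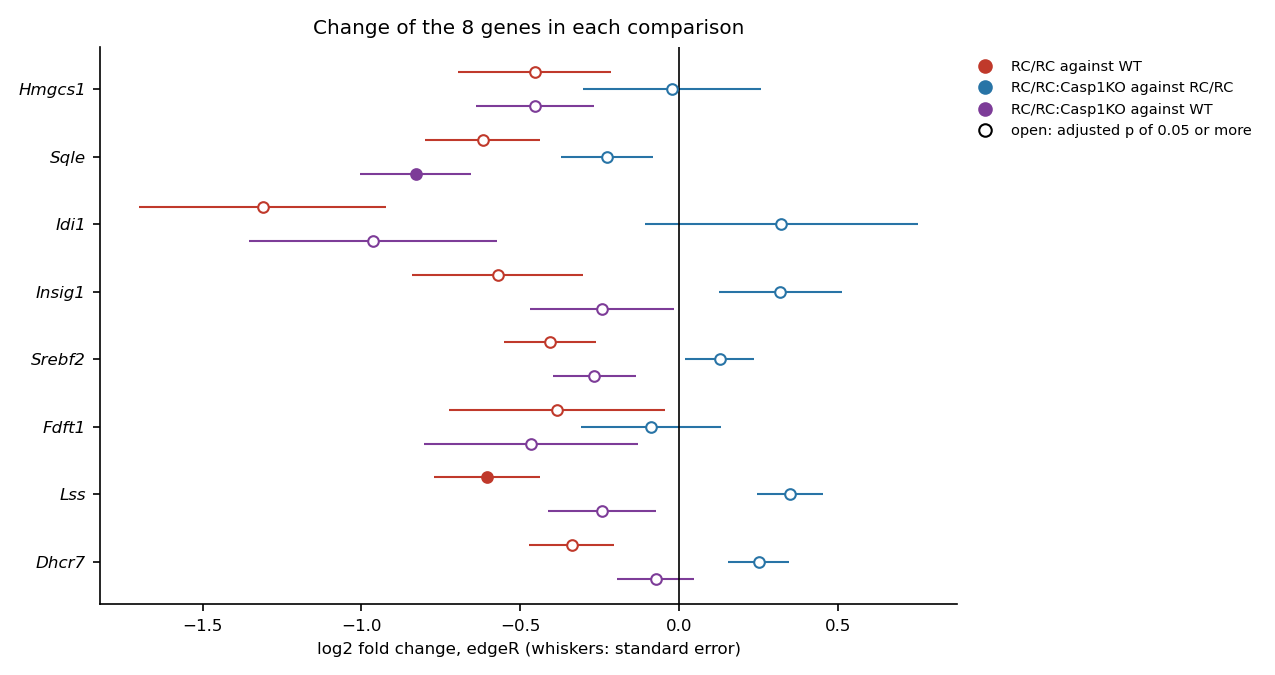
Log2 fold change of the 8 genes in the 3 comparisons, from edgeR, with whiskers of 1 standard error; filled points have an adjusted p under 0.05 and open points do not. With TMM scaling all points of RC/RC against WT and of RC/RC:Casp1KO against WT lie left of 0 (with library totals alone *Dhcr7* in the latter is at 0.05), and the filled ones are *Lss* in the first and *Sqle* in the second.

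The wider pathway was read from a list of 19 enzymes, which includes 6 of the 8 genes. Of the 19, 17 had a log2 fold change below 0 in RC/RC against WT (16 with scaling by library totals alone), with a median of -0.39, and 3 were called lower and none higher. The 3 were *Lss*, *Tm7sf2* and *Nsdhl*, and with library totals alone none of the 3 was called (adjusted p = 0.0936, 0.0674 and 0.0576). Of the 13 enzymes outside the 8 genes, 11 were below 0, with a median of -0.25, and 2 were called lower. *Tm7sf2*, a sterol C14 reductase, was at 20.5, 21.3, 16.5 and 17.5 CPM in WT and at 14.03, 11.0, 10.4 and 14.7 CPM in RC/RC. The groups were apart, and the gene fell by 33.99% (log2 fold change -0.60, SE 0.15, adjusted p = 0.0293). It overlaps *Vps51* on the same strand by 532 bases, so some reads may belong to either gene. *Nsdhl*, which acts in the removal of the C4 methyl groups, was at 66.5, 58.9, 51.8 and 54.7 CPM in WT and at 39.3, 30.7, 43.6 and 48.3 CPM in RC/RC. It too fell without overlap, by 30.5% (log2 fold change -0.53, SE 0.14, adjusted p = 0.0424). The call of *Tm7sf2* was kept without WT mouse 3, RC/RC mouse 1 or RC/RC mouse 4 and lost without any other single mouse (adjusted p from 0.0594 to 0.0797), WT mouse 1 among them (-0.56, adjusted p = 0.0682). That of *Nsdhl* was kept without RC/RC mouse 4 alone and lost without any other single mouse (adjusted p from 0.0517 to 0.0917, the highest without WT mouse 1). The *Nsdhl* call was also lost when every gene with at least 1 count was tested (adjusted p = 0.0531). Without WT mouse 1 none of the 19 enzymes was called lower, and none without RC/RC mouse 2 or 3.

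The C4 methyl oxidase *Msmo1* stood at 77.1, 41.5, 26.7 and 30.6 CPM in WT and at 24.5, 25.8, 20.2 and 23.97 CPM in RC/RC (log2 fold change -0.90, SE 0.30, adjusted p = 0.0782). The RC/RC mice were all below the WT mice, but WT mouse 1 was far above the rest, and the log2 fold change of *Msmo1* was -0.49 without it (adjusted p = 0.0934) and -1.11 without WT mouse 3 (adjusted p = 0.0351). *Msmo1* also passed in DESeq2's Wald test (adjusted p = 0.0205) and in 1 fit of all 12 mice (adjusted p = 0.0444). For *Fdps*, at 57.1 CPM in WT mouse 1 and 19.3 to 30.3 CPM in the other WT mice, the log2 fold change went from -0.44 to -0.018 without WT mouse 1 (adjusted p = 0.968). *Hsd17b7* (-0.48, adjusted p = 0.141) and *Sc5d* (-0.35, adjusted p = 0.158) had overlapping groups. Both passed without RC/RC mouse 4, *Hsd17b7* at -0.67 (adjusted p = 0.0297) and *Sc5d* at -0.51 (adjusted p = 0.0226). Neither passed without any other single mouse. *Fdps*, *Cyp51* (-0.25), *Lbr* (-0.22), *Mvd* (-0.19), *Ebp* (-0.16) and *Acat2* (-0.06, which turned to 0.02 when libraries were scaled by their totals alone) had adjusted p-values from 0.405 to 0.869. The 2 enzymes above 0 were *Pmvk* (0.27, adjusted p = 0.448) and *Mvk* (0.09, adjusted p = 0.756).

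Within groups the 19 enzymes spread unequally. The ratio of the highest to the lowest mouse ran from 1.14 for *Acat2* to 3.23 for *Fdft1* in WT, from 1.02 for *Ebp* to 3.26 for *Idi1* in RC/RC and from 1.12 for *Dhcr7* to 2.598 for *Idi1* in RC/RC:Casp1KO. *Cyp51*, at 2.38, 2.40 and 2.53, spread widely in all 3 groups, and its transcript shares 1204 bases with that of its neighbour *Akap9*, so some reads may belong to either gene.

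**Figure D3:**
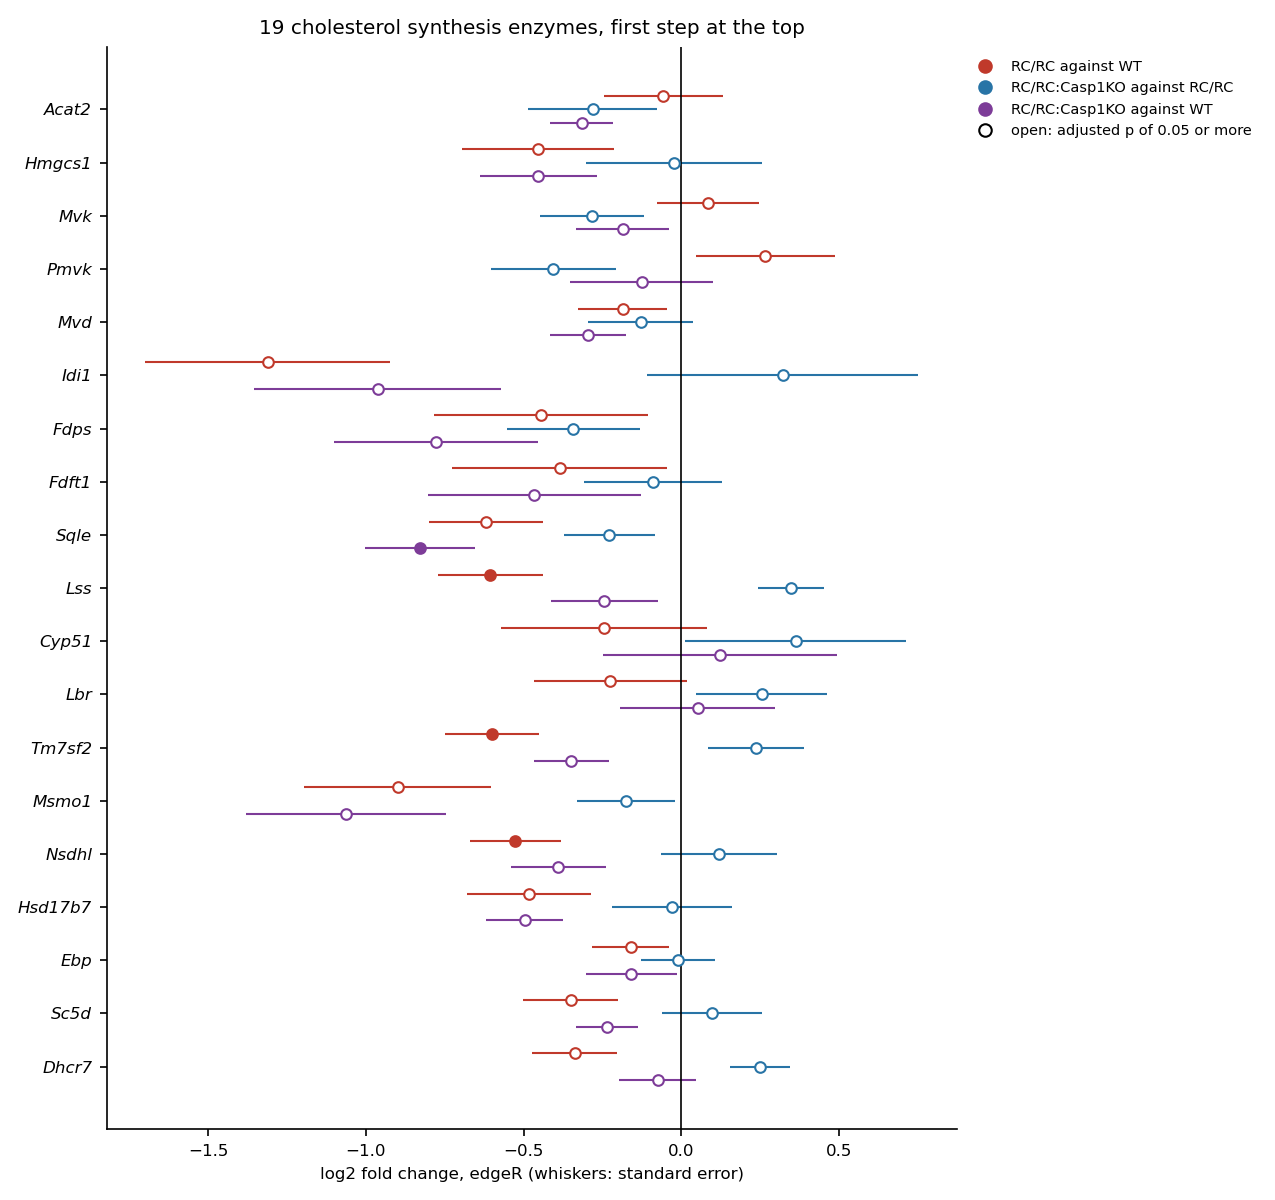
Log2 fold change of 19 enzymes of cholesterol synthesis in the 3 comparisons, from early steps at the top to late ones at the bottom, with whiskers of 1 standard error; filled points have an adjusted p under 0.05. In RC/RC against WT 17 of 19 points lie below 0 (16 with library totals alone) and the filled ones are *Lss*, *Tm7sf2* and *Nsdhl*, while the points of RC/RC:Casp1KO against RC/RC lie on both sides of 0.

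Of 12 genes of SREBP control none was called in RC/RC against WT, and the median log2 fold change was -0.08. *Scap*, the escort, was -0.13 (adjusted p = 0.343), *Insig2* was -0.16 (adjusted p = 0.359) and *Srebf1* was 0.07 (adjusted p = 0.895). In the list of 16 uptake and transport genes *Scarb1*, the HDL receptor, was the single call, and rose from 19.1 ± 3.83 to 32.7 ± 6.33 CPM (log2 fold change 0.77, SE 0.18, adjusted p = 0.0220), with no overlap of the groups.

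Among 12 tested genes of efflux, oxysterols and esters, *Ch25h* was the single call. It makes 25-hydroxycholesterol, an oxysterol known to hold SREBP2 back, and it was at 0.765, 0.431, 0.599 and 0.469 CPM in WT and at 4.03, 5.00, 5.50 and 2.23 CPM in RC/RC. All RC/RC mice were above all WT mice, and *Ch25h* rose 7.29-fold (log2 fold change 2.87, SE 0.35, adjusted p = 0.00130). The cholesterol exporters *Abca1* (0.75, SE 0.22, adjusted p = 0.0535) and *Abcg1* (0.77, SE 0.30, adjusted p = 0.121) did not pass. None of 13 fatty acid synthesis genes was called, and their median was -0.10. *Fasn* was at 736 CPM in RC/RC mouse 2 and between 63.9 and 89.4 CPM in the other RC/RC mice, against 89.2 to 121 CPM in WT, so its log2 fold change of 1.21 (adjusted p = 0.301) rests on the mouse with the high adipocyte markers. *Scd1* was at 1831, 1748, 247 and 436 CPM in WT and at 1959, 1534, 262 and 517 CPM in RC/RC (log2 fold change 0.00, adjusted p = 0.998). None of 11 tested genes of other isoprenoid branches was called, and their median was -0.24.

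Markers of other cell types moved with the groups. All 6 fibroblast markers were called higher in RC/RC, summing to 812 to 1875 CPM against 218 to 308 CPM in WT, with *Col3a1* the most abundant. Macrophage markers were called higher in 8 of 9, summing to 415 to 569 CPM against 157 to 204 CPM (*Csf1r* most abundant), and lymphocyte markers in 8 of 9, at 37.8 to 56.4 CPM against 18.5 to 24.6 CPM (*Ptprc* most abundant). Injured tubule markers were called higher in 5 of 6, at 2203 to 5756 CPM against 503 to 2147 CPM (*Spp1* most abundant), and proliferation markers in 5 of 6, at 80.3 to 104 CPM against 46.3 to 59.8 CPM (*Pcna* most abundant).

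Some tubule markers were called lower. Those of the proximal tubule were called lower in 2 of 10, with sums of 8730 to 27345 CPM in RC/RC and 13210 to 35094 CPM in WT (*Kap* most abundant), and markers of the thick ascending limb and distal tubule in 3 of 6, with sums of 3335 to 5667 CPM and 5020 to 8468 CPM (*Umod* most abundant). The 8 collecting duct markers summed to 863 to 1241 CPM in RC/RC and 515 to 983 CPM in WT, with 4 of 7 tested higher and 2 lower at an unadjusted p under 0.05 and a median log2 fold change of 0.34. Of 4 podocyte markers 1 was called lower, and none of the collecting duct, endothelial, neutrophil, adipocyte or adrenal cortex markers that could be tested was called. Adrenal cortex markers, from a gland that makes steroids from cholesterol, summed to no more than 5.69 CPM in any mouse, with *Star* the most abundant and 3 to 5 of 8 genes at 0. The part of these cell types in the levels of the 8 genes was not tested. Without RC/RC mouse 2, the mouse with the high adipocyte markers, the median log2 fold change of the 8 genes was -0.58. Over the 8 fits that leave out 1 mouse that median ran from -0.67 (without WT mouse 3) to -0.41 (without WT mouse 1).

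The second comparison, RC/RC:Casp1KO against RC/RC, addresses the effect of *Casp1* loss in the cystic kidney, and it shares the RC/RC mice with the first. None of the 8 genes was called by edgeR, where 11.6% of 15428 genes were, 7.23% higher and 4.41% lower. *Lss* and *Dhcr7* had an unadjusted p under 0.05, both higher, as did 15.3% of all genes in that direction, and DESeq2 called 1 gene, *Lss*. For 5 of the 8 the log2 fold change was above 0 and for 3 below (2 with scaling by library totals alone), where 52.5% of all genes were below, and the median was 0.19 against -0.03 over all genes. Leaving out 1 mouse took the median of the 8 genes from 0.077 (without RC/RC:Casp1KO mouse 2) to 0.27 (without RC/RC mouse 4).

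*Lss* was at 26.6, 26.9, 29.4 and 22.6 CPM in RC/RC:Casp1KO, all above the RC/RC mice, which reached 21.3 CPM. The log2 fold change was 0.35 (SE 0.10, adjusted p = 0.0583), and it was 0.36 with an adjusted p of 0.0395 in DESeq2's Wald test. Without RC/RC:Casp1KO mouse 4, the lowest of its group, edgeR gave 0.42 (adjusted p = 0.0415). *Dhcr7* was at 25.4, 28.0, 25.1 and 25.3 CPM, again all above the RC/RC mice, which reached 23.4 CPM (log2 fold change 0.25, SE 0.10, adjusted p = 0.110). Over all genes the groups were apart in this direction for 11.3% and in the other, which held none of the 8, for 9.18%.

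The regulators overlapped between these groups. *Srebf2* was at 118, 121, 119 and 101 CPM in RC/RC:Casp1KO, with mouse 2 above every RC/RC mouse, mice 1 and 3 near the highest of them and mouse 4 lower (log2 fold change 0.13, SE 0.11, adjusted p = 0.447). *Insig1* was at 49.8, 54.3, 47.0 and 39.1 CPM, mostly above or near the highest RC/RC mouse (log2 fold change 0.32, SE 0.19, adjusted p = 0.289).

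*Hmgcs1* and *Idi1* each split into a lower and a higher pair among the RC/RC:Casp1KO mice. *Hmgcs1* was at 300.1, 513, 359.8 and 496 CPM, within the range of the RC/RC mice apart from the lowest value (log2 fold change -0.02, SE 0.28, adjusted p = 0.964). *Idi1* was at 13.0, 33.3, 12.8 and 29.8 CPM (log2 fold change 0.32, SE 0.43, adjusted p = 0.639), and leaving out 1 mouse took *Idi1* from 0.057 without RC/RC:Casp1KO mouse 2 to 0.73 without RC/RC mouse 4. The same mice, 2 and 4, held the higher pair of both genes.

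*Sqle* was at 46.8, 59.8, 47.3 and 59.2 CPM, with 2 mice below every RC/RC mouse (log2 fold change -0.23, SE 0.14, adjusted p = 0.310). *Fdft1* was at 29.8, 22.8, 32.2 and 18.9 CPM (log2 fold change -0.09, SE 0.22, adjusted p = 0.812). Neither moved beyond the spread between mice.

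None of the 19 enzymes was called by edgeR in this comparison. There were 8 above 0 and 11 below (8 with scaling by library totals alone), with a median of -0.02 (0.04 with library totals alone), and the 2 with an unadjusted p under 0.05 were *Lss* and *Dhcr7*. On leaving out 1 mouse the median of the 19 ran from -0.097 (without RC/RC:Casp1KO mouse 3) to 0.17 (without RC/RC mouse 4). *Tm7sf2* was at 14.8 ± 1.68 CPM in RC/RC:Casp1KO (SD, n = 4; log2 fold change 0.24, adjusted p = 0.316) and *Nsdhl* at 44.1 ± 9.996 CPM (0.12, adjusted p = 0.690). Their means lay between those of RC/RC and WT.

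Outside synthesis, *Ch25h* fell. It was at 1.38, 0.609, 1.04 and 1.14 CPM in RC/RC:Casp1KO, below every RC/RC mouse (0.251-fold, log2 fold change -1.99, SE 0.35, adjusted p = 0.0116). *Npc2*, which passes cholesterol out of the lysosome, fell from 149 ± 4.56 to 111 ± 6.12 CPM (log2 fold change -0.42, SE 0.09, adjusted p = 0.0249). *Gramd1a*, a sterol transfer protein of contact sites between the endoplasmic reticulum and the plasma membrane, rose from 24.5 ± 4.00 to 35.9 ± 3.40 CPM (log2 fold change 0.55, SE 0.13, adjusted p = 0.0335).

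The other calls were weakly expressed genes. *Cyp46a1*, a cholesterol 24-hydroxylase, rose from 1.41 ± 0.366 to 3.38 ± 0.519 CPM (log2 fold change 1.25, SE 0.24, adjusted p = 0.0171), and *Lcat*, which esterifies plasma cholesterol, from 0.591 ± 0.177 to 1.57 ± 0.383 CPM (log2 fold change 1.40, SE 0.31, adjusted p = 0.0265; SD, n = 4 throughout). No gene of SREBP control, fatty acid synthesis or the other isoprenoid branches was called. *Scap* was 0.09 (adjusted p = 0.538), *Insig2* -0.07 (adjusted p = 0.705), *Srebf1* 0.06 (adjusted p = 0.917), *Fasn* -1.11 (adjusted p = 0.338), *Scd1* -0.09 (adjusted p = 0.951), *Abca1* 0.55 (adjusted p = 0.192) and *Abcg1* -0.34 (adjusted p = 0.379) on the log2 scale.

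Cell type markers moved here too. Fibroblast markers were called lower in 4 of 6, with sums of 308 to 712 CPM in RC/RC:Casp1KO, macrophage markers in 2 of 9 (209 to 482 CPM), lymphocyte markers in 1 of 9 (24.5 to 78.8 CPM) and proliferation markers in 1 of 6 (41.4 to 71.9 CPM). Proximal tubule markers were called higher in 2 of 10 (16613 to 34454 CPM), and those of the thick ascending limb and distal tubule in 1 of 6 (3945 to 7245 CPM). No injured tubule marker was called, but 5 of 6 were lower at an unadjusted p under 0.05, as were 16.4% of all genes. The median log2 fold change of the 6 was -1.33, and their sums of 667 to 2095 CPM lay below every RC/RC mouse. Most of each sum was *Spp1*, at 635 to 1928 CPM. The groups did not overlap for 1 of the 6, against 9.18% of all genes in that direction. RC/RC:Casp1KO mouse 4 held the highest fibroblast, macrophage, lymphocyte, proliferation and injured tubule sums of its group. Its fibroblast sum was 712 CPM against 308 to 461 CPM in the rest of the group, and its macrophage sum 482 against 209 to 280 CPM. That mouse also had the lowest *Lss*, *Srebf2*, *Insig1* and *Fdft1* of the group. It was among the 2 highest of the group for *Hmgcs1*, *Idi1* and *Sqle*, and its *Dhcr7* was not the lowest. It is also one of the mice with *Ddx3y*. The part of cell type markers in the levels of the 8 genes was not tested.

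The third comparison, RC/RC:Casp1KO against WT, shares mice with both others and asks what still differs from normal when *Casp1* is lost. All 8 genes had a log2 fold change below 0, from -0.96 to -0.07 (7 with scaling by library totals alone, which turned *Dhcr7* to 0.05), with a median of -0.36 against 0.01 over all 15346 genes, of which 48.5% were below 0. Of the 8, *Sqle* was the single call, where 2.03% of all genes were called, 0.893% lower and 1.13% higher, and it was also the single gene of the 8 whose groups did not overlap, against 6.22% of all genes lower and 7.47% higher. *Sqle* was between 46.8 and 59.8 CPM in RC/RC:Casp1KO and between 76.1 and 131 CPM in WT. It fell by 43.7% (log2 fold change -0.83, SE 0.17, adjusted p = 0.0499).

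The *Sqle* call was near the threshold. It was kept in 1 of the 8 fits that leave out 1 mouse, the one without WT mouse 3 (adjusted p = 0.0397), and was lost in the other 7, with adjusted p-values of 0.0520 to 0.143. It was also lost with library totals alone (adjusted p = 0.0687) and with a filter at 10 counts per mouse (adjusted p = 0.0584). Without WT mouse 1 the log2 fold change was -0.64 (adjusted p = 0.0668).

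*Idi1* (-0.96, SE 0.39, adjusted p = 0.200) and *Hmgcs1* (-0.45, SE 0.19, adjusted p = 0.203) had an unadjusted p under 0.05 and overlapping groups. *Srebf2* was -0.27 (SE 0.13, adjusted p = 0.269), *Insig1* -0.24 (SE 0.23, adjusted p = 0.542) and *Fdft1* -0.47 (SE 0.34, adjusted p = 0.436). *Lss* was -0.24 (SE 0.17, adjusted p = 0.422) and *Dhcr7* -0.07 (SE 0.12, adjusted p = 0.750). All RC/RC:Casp1KO values of *Dhcr7* lay within the WT range, as did all but the lowest of *Lss*. Without WT mouse 1 the median over the 8 genes was -0.11, *Srebf2* was at -0.15, *Insig1* at -0.058, *Fdft1* at -0.069 and *Lss* at -0.077, and *Dhcr7* turned to 0.06 (adjusted p = 0.770).

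Of the 19 enzymes 17 were below 0 (15 with scaling by library totals alone), with a median of -0.32. There were 11 lower at an unadjusted p under 0.05, against 9.99% of all genes, and 1, *Sqle*, was called. *Msmo1* (-1.06, SE 0.32, adjusted p = 0.121), *Fdps* (-0.78, SE 0.32, adjusted p = 0.209) and *Hsd17b7* (-0.50, SE 0.12, adjusted p = 0.0787) were among those not called by edgeR, and without WT mouse 1 *Msmo1* was at -0.65 and *Fdps* at -0.35. DESeq2's Wald test called *Hsd17b7* (adjusted p = 0.0131), *Msmo1* (adjusted p = 0.0160) and *Acat2* (adjusted p = 0.0487) lower. The 2 above 0 were *Cyp51* (0.12, adjusted p = 0.871) and *Lbr* (0.05, adjusted p = 0.918).

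*Abca1*, the exporter that loads cholesterol onto apolipoprotein A-I, was the single call among the other sterol genes. It was at 26.03, 29.5, 32.8 and 28.2 CPM in the WT mice, at 71.5, 53.1, 32.7 and 39.4 CPM in the RC/RC mice and at 97.4, 45.4, 73.1 and 71.2 CPM in the RC/RC:Casp1KO mice. All RC/RC:Casp1KO mice were above all WT mice, and it rose 2.48-fold (log2 fold change 1.31, SE 0.20, adjusted p = 0.0185). *Abcg1* was 0.44 (adjusted p = 0.429), *Srebf1* 0.14 (adjusted p = 0.805), *Scap* -0.03 (adjusted p = 0.860), *Insig2* -0.22 (adjusted p = 0.172), *Fasn* 0.11 (adjusted p = 0.784) and *Scd1* -0.09 (adjusted p = 0.961). Called markers of other cell types were 1 of 6 for fibroblasts, 1 of 8 tested for lymphocytes and 1 of 6 for proliferation, all higher, and 1 of 6 for the thick ascending limb and distal tubule, which was lower, and their part was not tested.

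Among themselves the 8 genes did not vary as a single block. Over the 12 mice the 28 pairs had Pearson correlations of log2 CPM from -0.30 to 0.94, with a median of 0.57 and 25 above 0. Taken as deviations from each group's mean, they ran from -0.74 to 0.92, with a median of 0.52 and 18 above 0. All pairs share libraries and scaling, so these are descriptions with no test.

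The closest pairs were *Hmgcs1* with *Idi1* (0.94, and 0.92 as deviations), *Srebf2* with *Lss* (0.93 and 0.91) and *Insig1* with *Srebf2* (0.91 and 0.92). *Idi1* and *Fdft1* were the farthest apart (-0.30, and -0.74 as deviations), followed by *Hmgcs1* with *Fdft1* (-0.29 and -0.62). *Sqle* was positively correlated with all of the others, and *Dhcr7* was close to *Srebf2* (0.84 and 0.81). Within groups, then, *Hmgcs1* and *Idi1* ran together and *Srebf2*, *Insig1*, *Lss* and *Fdft1* ran together.

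**Figure D4:**
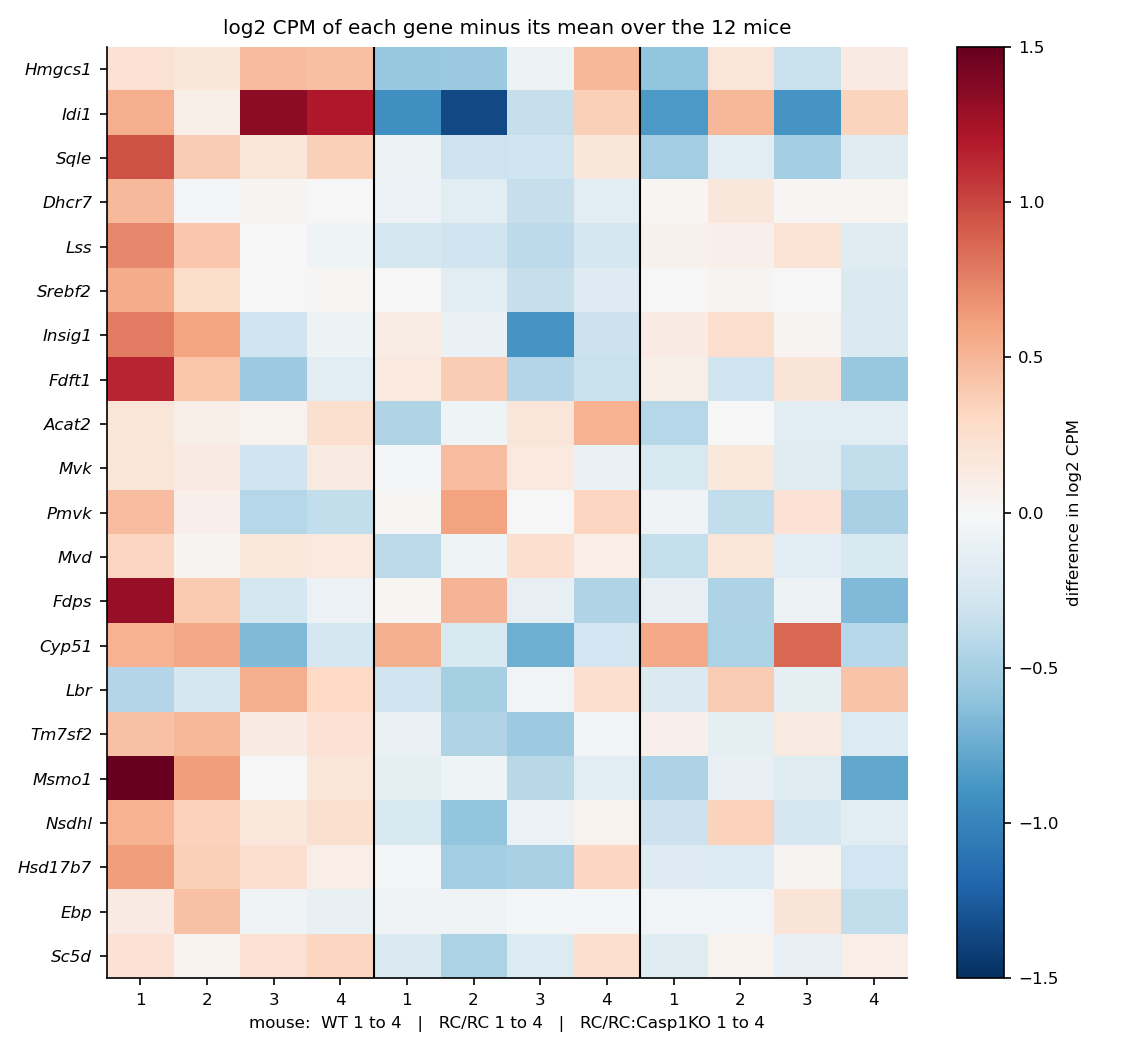
Difference in log2 CPM of each gene from its mean over the 12 mice, for the 8 genes (upper rows) and the other 13 enzymes (lower rows), with mice 1 to 4 of each group from left to right; red is above and blue below the mean, and the scale runs from -1.5 to 1.5. *Hmgcs1* and *Idi1* are red in WT mice 3 and 4 where *Insig1* and *Fdft1* are blue, and WT mouse 1 is red for *Sqle*, *Fdft1*, *Fdps* and *Msmo1*.

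The mice behind these patterns can be named. For *Hmgcs1* and *Idi1* the 2 highest values of each group belonged to WT mice 3 and 4, RC/RC mice 3 and 4 and RC/RC:Casp1KO mice 2 and 4, which are also the mice with *Ddx3y*. *Lbr* and *Sc5d* showed the same order. For *Fdft1*, *Fdps* and *Cyp51* the 2 highest values of each group belonged to the other pair, the mice with *Xist*. The remaining 5 of the 8 genes and 12 of the 19 enzymes followed neither order in all 3 groups. This was noticed after the values were seen, and the part of sex was not tested, because the columns do not give it. The summed proximal tubule markers were also highest in the mice with *Ddx3y*, at 34976 and 35094 CPM in WT mice 3 and 4, 24090 and 27345 CPM in RC/RC mice 3 and 4 and 34454 and 26746 CPM in RC/RC:Casp1KO mice 2 and 4, against 8730 to 20667 CPM in the other 6. Much of this sum was *Kap*, the kidney androgen-regulated protein, at 12815 to 18236 CPM in the mice with *Ddx3y* and 2348 to 6945 CPM in the other 6. Without *Kap*, an alternative added after seeing the data, the sums overlapped, at 9572 to 17534 CPM in the mice with *Ddx3y* and 5752 to 13722 CPM in the other 6, though within each group the mice with *Ddx3y* were still the higher pair. The part of these markers was not tested either.

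The genes whose pattern over the 12 mice was most like the mean of the 8 standardised genes were sought among 15867 genes by Pearson correlation. The first 10 were *Pnpt1* (0.94), a mitochondrial ribonuclease, *Atp6ap1* (0.93), a subunit of the vacuolar proton pump, *Stk11* (0.92), the kinase LKB1, *Uba1* (0.92), the ubiquitin-activating enzyme, *Zfp94* (0.91), *Ppm1h* (0.91), *Dis3l* (0.90), *Rhot2* (0.89), *Epb4.1l3* (0.89) and *Add3* (0.89). None of the other 13 enzymes was among them. The points share libraries and scaling, and no test is attached.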

How the data were processed

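Poly(A) RNA of kidney tissue from 12 mice, 4 per group, was sequenced. The authors deposited one table of raw read counts per gene and mouse, without normalization. Per the labels, the submitters' processing notes name CASAVA 1.8, STAR and mm10. The counting tool, annotation and strand setting are not given in the sources used here. The deposited gene lengths and coordinates (base pairs) were used as given, and for most genes the deposited start differs from the RefSeq start that sets the promoter window. The fold changes, p-values, FPKM values and group means of the authors' own comparisons were not used.

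The columns give a mouse's group but neither its sex nor its replicate number, and columns of unknown group numbered 0. By the study's methods the 4 libraries of each group are from different mice. Each of the 18 within-group pairs differed beyond counting noise, so none was taken as a library deposited again (the chi-square statistic over its degrees of freedom was 15.7 to 128). By the study's methods a WT C57BL/6J colony was kept beside the RC/RC one, and whether any WT and RC/RC mice were littermates is not given in the sources used here. The same gap holds for RC/RC and RC/RC:Casp1KO mice, so *Casp1* loss and other differences between these lines cannot be told apart. The p-values measure the spread between these mice, which includes any difference between females and males of a group, since sex was not in the fits. Mitochondrial genes held 7.78% to 12.1% of reads. At this depth 3 counts correspond to 0.115 to 0.166 CPM, which covers counting error only.

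For each comparison the 8 mice were fitted in edgeR (version 4.0.16 under R 4.3.3) with TMM factors, filterByExpr and the quasi-likelihood test, and genes with a Benjamini-Hochberg adjusted p under 0.05 over all genes tested were called. All 8 genes passed the filter in every comparison. The SE of a log2 fold change is its size over the square root of the F statistic. CPM was scaled with TMM factors of all 12 libraries, FPKM is the count over gene length and library total, and correlations used log2 CPM with a prior count of 2. Alternatives were DESeq2's Wald test (DESeq2 1.42.0), RLE factors, library totals alone, a filter at 1 count in all, a filter at 10 counts per mouse, 1 fit of all 12 mice, and leaving out each mouse. The main edgeR fit and the DESeq2 fit of RC/RC against WT were tried on simulated counts with 200 changed genes. A limit on false calls was required of edgeR alone, and the other settings were not tried in this way.

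The 8 genes, the lists and the markers were chosen with earlier results of these data known. Some genes of the lists are not reported here and are left out of the lists' counts and medians. The text names the 8 genes, 19 enzymes, *Srebf1*, *Scap*, *Insig2*, *Abca1*, *Abcg1*, *Fasn* and *Scd1*, every gene of the sterol and lipid lists called in any comparison, *Casp1* and *Pkd1*, and the 10 genes most correlated with the mean of the 8. *Xist*, *Ddx3y*, *Ctsb*, *Vps51*, *Akap9* and the pseudogenes were named after values were seen. *Adgre1* and *Spring1* were matched by synonym. Shared stretches were sought with BLAST among GENCODE transcripts, at 95% identity over at least 100 bases. Promoter windows are from RefSeq.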

Additional observations from a re-analysis of the deposited data

Results flagged for a closer look

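In 63 sets of 4 mice, which are the 8 genes and the other 13 enzymes in each of the 3 groups, 4 held a mouse whose distance from its nearest neighbour was unusually large beside the range of its group by Dixon's criterion. Chance gives about 1 in 20 such sets. *Dhcr7* was 34.8 CPM in WT mouse 1, with the next WT mouse at 25.6 CPM, and 28.0 CPM in RC/RC:Casp1KO mouse 2, with the next at 25.4 CPM. *Srebf2* was 101 CPM in RC/RC:Casp1KO mouse 4, with the next at 118 CPM. *Mvk* was 13.5 CPM in WT mouse 3, with the next at 18.2 CPM.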

How the results depend on the processing

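With 4 mice per group and the calls of *Lss*, *Tm7sf2*, *Nsdhl* and *Sqle* close to the threshold, counts of called genes among the 8 moved with the test and the scaling. No paired analysis was possible because the columns carry no replicate numbers. In RC/RC against WT, *Lss* was called in 5 of 6 alternatives and *Idi1* was not called in the main test but had an adjusted p of 0.00499 by DESeq2. *Fdft1*, *Tm7sf2*, *Acat2* and *Cyp51* overlap or share sequence with other expressed genes, and the effect on their counts was not tested. Sex was not entered in any fit, since the columns do not give it. Where a result moved, the cause was not tested.

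The 8 genes called lower in RC/RC against WT numbered 1, and 4 with DESeq2, 0 with library totals alone, 2 with at least 1 count, 3 in 1 fit of all 12 mice and 0 to 3 on leaving out a mouse. Of the 19 enzymes 3 were called lower, and 6 with DESeq2, 0 with library totals alone, 5 in the fit of 12 mice and 0 to 7 on leaving out a mouse. Over all genes 3.18% were called lower in RC/RC against WT. That share was 5.67% with DESeq2, 1.73% with library totals alone, 1.77% with at least 1 count and 5.42% in the fit of 12 mice. On leaving out a mouse it ran from 1.34% to 4.22%. In RC/RC:Casp1KO against RC/RC 0 of the 8 were called higher, 1 with DESeq2 and 0 to 1 on leaving out a mouse. In RC/RC:Casp1KO against WT 1 of the 8 was called lower, 0 with library totals alone, 0 with at least 10 counts in every mouse and 0 to 1 on leaving out a mouse. The enzymes called lower there numbered 1, with 4 by DESeq2, 0 with library totals alone, 0 with at least 10 counts and 0 to 1 on leaving out a mouse. Over all genes 0.893% were called lower there, with 3.21% by DESeq2, 0.463% with library totals alone and 0.636% with at least 10 counts. On leaving out a mouse this share ran from 0.315% to 1.55%. The 8 genes below 0 numbered 7 to 8 on leaving out a mouse in RC/RC against WT and in RC/RC:Casp1KO against WT, and 2 to 3 in RC/RC:Casp1KO against RC/RC.

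Over all genes, calls in RC/RC against WT numbered 1971, 3027 with DESeq2 and 1162 (without WT mouse 4) to 2440 on leaving out a mouse. In RC/RC:Casp1KO against RC/RC they numbered 1797, 3172 with DESeq2, 993 with library totals alone and 438 (without RC/RC mouse 3) to 2789 (without RC/RC mouse 1). In RC/RC:Casp1KO against WT they numbered 311, 1387 with DESeq2, 167 with at least 10 counts and 108 (without WT mouse 4) to 547 (without RC/RC:Casp1KO mouse 2). Library totals alone moved the median of all genes by 0.10, 0.05 and 0.13 on the log2 scale in these 3 comparisons and the share of calls that were lower from 24.6% to 13.9%, from 37.9% to 18.03% and from 44.1% to 20.2%.

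Signs changed as follows. With library totals alone, *Acat2* was 0.0232 in RC/RC against WT, *Hmgcs1* was 0.0470, *Hsd17b7* 0.0267 and *Ebp* 0.0380 in RC/RC:Casp1KO against RC/RC, and *Dhcr7* was 0.0519 and *Pmvk* 0.00907 in RC/RC:Casp1KO against WT. *Ebp* in RC/RC:Casp1KO against RC/RC was 0.00372 with RLE factors and 0.00228 with at least 1 count. On leaving out a mouse, RC/RC against WT gave -0.63 to 0.00894 for *Fdft1*, -0.24 to 0.0761 for *Acat2* and -0.0689 to 0.16 for *Mvk*. RC/RC:Casp1KO against RC/RC gave -0.17 to 0.27 for *Hmgcs1*, -0.21 to 0.10 for *Fdft1*, -0.0544 to 0.23 for *Nsdhl*, -0.13 to 0.17 for *Hsd17b7* and -0.10 to 0.0822 for *Ebp*. RC/RC:Casp1KO against WT gave -0.13 to 0.0561 for *Dhcr7*, -0.26 to 0.0735 for *Pmvk*, -0.15 to 0.30 for *Cyp51* and -0.0922 to 0.22 for *Lbr*, where the signs of *Dhcr7*, *Pmvk* and *Lbr* changed without WT mouse 1.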
